A study of Mus musculus with 11 samples.

Results

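The genes described here encode the 8 subunits of TRiC, also called CCT, the chaperonin of the eukaryotic cytosol: Tcp1, Cct2, Cct3, Cct4, Cct5, Cct6a, Cct7 and Cct8. They were taken by symbol from the 21957 genes with counts, through the Ensembl identifiers in the deposited table, and all 8 were found. The cells were primed OT1 cells, mouse CD8 T cells with a transgenic receptor for an ovalbumin peptide, and the series design names them memory T cells. Stimulated cells received beads carrying antibodies to CD3 and CD28 for 2 h, and unstimulated cells (labelled T0) were left resting. Both then received cycloheximide, which holds ribosomes on their mRNA, for 10 min. Messenger RNA was sequenced in 3 stimulated and 3 unstimulated libraries, and ribosome footprints, the fragments that ribosomes shield from nuclease, in 2 stimulated (replicates 2 and 3) and 3 unstimulated libraries; a stimulated footprint replicate 1 is not analysed here. The labels give no age, sex or way of priming. They do not say if a replicate is its own culture or animal, and p-values here measure the spread between these samples alone.

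TRiC is a pair of stacked rings, each built from 1 copy of every subunit, that encloses an unfolded protein and closes over it as ATP is hydrolysed. Actin and tubulin fold only with its help, and so do several cell cycle and signalling proteins, with prefoldin handing over clients and phosducin-like proteins acting as cofactors. The subunits sit in a fixed order in which Tcp1 (alpha) is followed by Cct3 (gamma), Cct6a (zeta), Cct8 (theta), Cct7 (eta), Cct5 (epsilon), Cct2 (beta) and Cct4 (delta), as worked out with yeast and bovine TRiC. In yeast the subunits on the side of Cct2, Cct4 and Cct5 bind ATP most tightly, while those equivalent to Cct3, Cct6a and Cct8 bind it weakly. In mice, T cells that lack Cct8 mature and respond poorly.

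RNA libraries held 21658263 to 28115983 counts in stimulated cells and 29279903 to 39346699 in unstimulated cells, whereas footprint libraries held only 20848 and 23641 counts in stimulated cells and 11136 to 15237 in unstimulated cells. Gm10800, Gm10801, Gm20594 and Lars2, 4 features outside the complex with very unequal shares of the RNA libraries, held 12.8 to 25.0% of counts in stimulated and 4.09 to 14.9% in unstimulated libraries. Markers of CD8 T cells summed to 2244.1 to 2814.5 CPM (counts scaled to library size) in stimulated and 2912.4 to 3388.4 CPM in unstimulated RNA libraries. Markers of B cells summed to at most 11.7 and 10.8 CPM, and those of myeloid cells to at most 20.9 and 16.8 CPM, in stimulated and unstimulated RNA libraries. All 5 B cell markers had 0 footprints in every library. Markers of CD4 T cells (19.8 to 22.7 CPM stimulated, 12.6 to 12.8 unstimulated) and NK cells (47.0 to 56.1 and 39.0 to 41.0), lists that hold genes CD8 T cells also express, summed higher in stimulated libraries, and erythroid markers lower (1.49 to 2.08 and 4.75 to 5.18). Of these lists, Cd40lg, a ligand of activated T cells, rose (log2 change 1.07 ± 0.18, edgeR adjusted p = 0.00474) and Alas2, of haem synthesis, fell (-1.53 ± 0.37, 0.0256), a call lost without stimulated replicate 2 (0.105) or unstimulated replicate 1 (0.130) or 3 (0.159). No B cell, myeloid, NK cell or CD8 T cell marker passed over all genes tested, the most abundant being Cd79a (-0.16 ± 0.46) and Pax5 (0.91 ± 0.66), Cd68 (0.29 ± 0.21) and Flt3 (1.08 ± 0.73), Eomes (0.54 ± 0.17) and Klrb1c (0.79 ± 0.60), and Cd8a (-0.01 ± 0.22) and Thy1 (0.14 ± 0.21). Log2 changes ran from -0.48 to 1.27 for B cell, -0.998 to 1.38 for myeloid and 0.54 to 1.20 for NK cell markers. Those of CD8 T cell markers ran from -0.66 to 0.14 (median -0.29). With scale and spread set on genes of at least 10 CPM, 4 of 8 CD8 T cell markers passed as lower and 1 as higher. The 4 were Cd3e, Cd8b1, Cd3g and Cd3d (-0.56 to -0.33), where 36.4% of all genes passed as lower. Eomes (0.64 ± 0.06) passed as higher, as did 36.9% of genes. The part of these cell types in the results was not tested. In such bulk samples, fewer cells of a type and less RNA per cell cannot be told apart.

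All 8 subunit mRNAs were abundant in both groups, and their mean level was higher in stimulated cells, by 1.17-fold for Cct7 up to 1.47-fold for Cct3 and Cct6a, when libraries were scaled by the trimmed mean of M-values (TMM) over all genes tested, a direction that turned for Tcp1, Cct2, Cct4, Cct7 and Cct8 both with the size factors of DESeq2 and without unstimulated replicate 2, and for Cct7 also with RLE scaling and without stimulated replicate 3. None of the 8 passed edgeR's quasi-likelihood test on that scale (adjusted p 0.145 to 0.484), where 8.26% of 18886 tested genes passed, 3.58% as higher and 4.68% as lower. Cct3 and Cct6a were below an unadjusted p of 0.05, and DESeq2 called none of the 8. When scale and spread were set on the 8494 genes of at least 10 CPM, all 8 passed as higher. Of those genes 73.3% passed, 36.9% as higher and 36.4% as lower. The members' call therefore depended on which genes entered the fit.

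Cct3, the gamma subunit (chromosome 3, 88297135 to 88321766 on GRCm38.p6), had 261, 313 and 435 TMM-scaled CPM in stimulated libraries, against 243, 207 and 236 in unstimulated libraries. All stimulated libraries lay above all unstimulated ones. Its log2 change was 0.56 ± 0.22 (standard error, edgeR adjusted p = 0.171). Cct6a, the zeta subunit next to it in the ring (chromosome 5, 129787356 to 129846443), had 275, 301 and 417 CPM in stimulated libraries, against 235, 203 and 237 in unstimulated libraries. Its groups did not overlap either, and its log2 change was 0.56 ± 0.21 (edgeR adjusted p = 0.145).

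The other subunits had smaller differences, and on this scale their groups overlapped. Tcp1, the alpha subunit for which the complex was first named (chromosome 17, 12916329 to 12925067), had 348, 396 and 551 TMM-scaled CPM in stimulated libraries, against 369, 315 and 364 in unstimulated libraries (log2 change 0.31 ± 0.22). Cct2, the beta subunit (chromosome 10, 117050997 to 117063852), had 407, 463 and 625 CPM in stimulated libraries, against 430, 375 and 418 in unstimulated libraries (0.29 ± 0.21). In both genes stimulated replicate 3 stood high and stimulated replicate 1 lay within the unstimulated range. Cct4, the delta subunit (chromosome 11, 22990593 to 23003336), had 293, 330 and 466 CPM in stimulated libraries, against 313, 263 and 312 in unstimulated libraries (0.29 ± 0.22). Cct5, the epsilon subunit, whose human form is mutated in a hereditary sensory neuropathy (chromosome 15, 31590800 to 31601846), had 367, 422 and 598 CPM in stimulated libraries, against 383, 344 and 379 in unstimulated libraries (0.33 ± 0.22). The same order of libraries returned in both genes. Cct7, the eta subunit (chromosome 6, 85451505 to 85468477), had 221, 279 and 389 CPM in stimulated libraries, against 265, 234 and 263 in unstimulated libraries (0.22 ± 0.23). Cct8, the theta subunit (chromosome 16, 87483325 to 87495869), had 283, 316 and 427 CPM in stimulated libraries, against 297, 263 and 293 in unstimulated libraries (0.26 ± 0.21). Stimulated replicate 1 of Cct7 lay below every unstimulated library. The mean-centred log2 levels of the 8 genes followed each other over the 6 libraries, with Pearson's r between 0.82 and 0.999 over 28 pairs, as a description only, since all pairs share libraries and scaling.

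**Figure D1:**
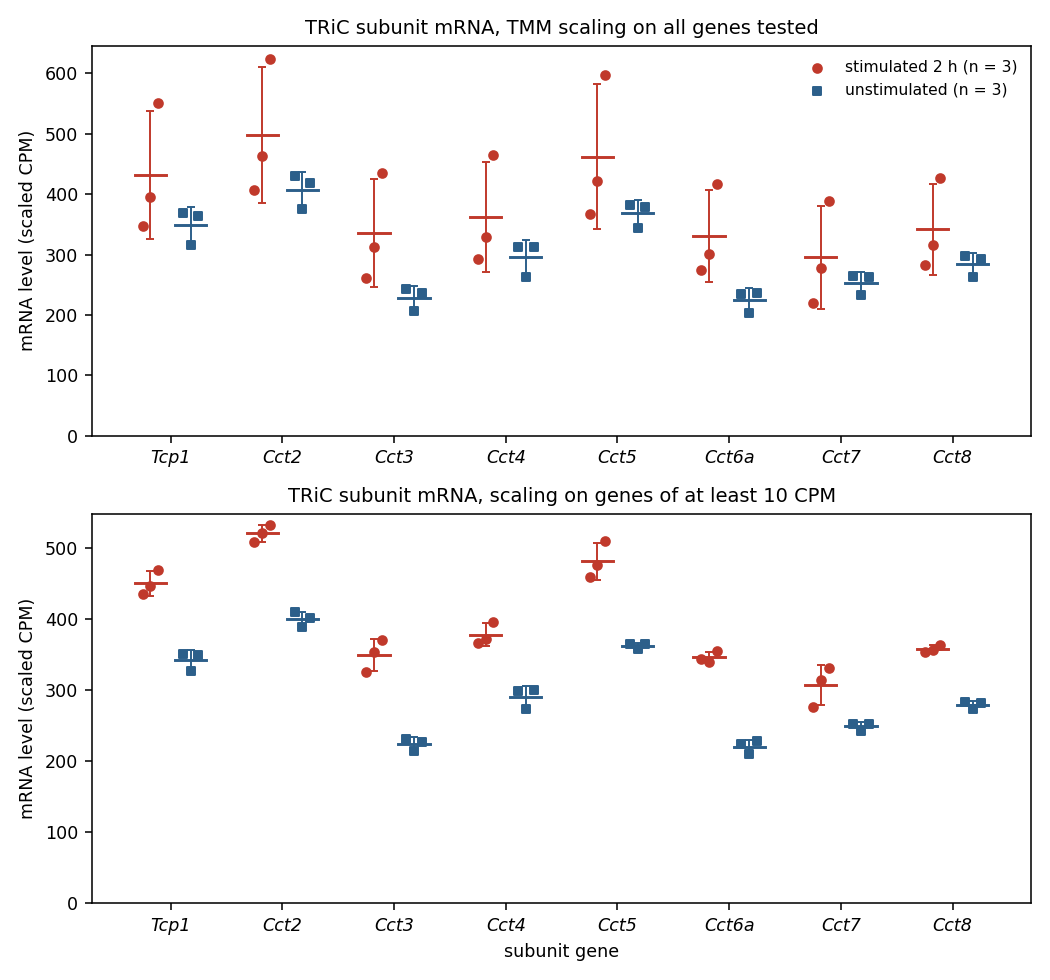
mRNA level of each TRiC subunit (vertical axis, CPM) in 3 stimulated (circles, left) and 3 unstimulated (squares, right) libraries, with means and SD bars, under scaling on all genes tested (top) and on genes of at least 10 CPM (bottom). In the top panel only Cct3 and Cct6a have groups that do not overlap, and in the bottom panel none of the 8 overlaps. The share of all genes without overlap was not counted for either panel.

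Scaled on genes of at least 10 CPM, the spread between replicates narrowed and the groups did not overlap for any subunit. The share of all genes whose groups do not overlap was not counted on either scale. On this one 73.3% of the 8494 genes passed the test. Cct3 had 326, 353 and 370 CPM in stimulated libraries, against 232, 214 and 227 in unstimulated libraries, a log2 change of 0.64 ± 0.05 (edgeR adjusted p = 2.9e-06). Cct6a had 343, 339 and 355 CPM in stimulated libraries, against 223, 210 and 228 in unstimulated libraries, a log2 change of 0.65 ± 0.04 (edgeR adjusted p = 4.5e-07). Each of these levels was about 1.6 times as high in stimulated cells, with means of 350 ± 22.6 and 224 ± 9.03 CPM for Cct3 and of 346 ± 8.13 and 220 ± 9.13 CPM for Cct6a in stimulated and unstimulated cells (SD, n = 3 each). Cct7 had the smallest difference, 307 ± 28.3 CPM in stimulated and 249 ± 5.68 CPM in unstimulated cells (log2 change 0.30 ± 0.06, edgeR adjusted p = 0.00138). Between these lay Cct5 (481 ± 25.7 CPM stimulated, 362 ± 4.19 unstimulated), Tcp1 (450 ± 17.5 and 342 ± 13.3), Cct4 (378 ± 16.3 and 290 ± 14.9), Cct2 (520 ± 11.9 and 400 ± 10.1) and Cct8 (358 ± 5.29 and 279 ± 5.63), with log2 changes of 0.36 to 0.41. Among the 8494 genes, ordered by log2 change, Cct6a stood 747th and Cct3 762nd from the top, and 77.0 to 83.5% of genes lay below the other 6.

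The members' change depended on the scaling, which shifts all genes together. Their median log2 change was 0.30 with TMM over all genes tested, against 0.39 for all of those genes and -0.09 for the genes of at least 10 CPM. Across 15 alternative settings that gave them a value, the members' median ran from -0.04 to 0.39. It exceeded the median of the genes of at least 10 CPM by 0.35 to 0.41 in these settings, and the lowest value of any single subunit was 0.24 above that median. A scale factor cancels from this difference, so its narrow range under other scalings follows from how it is made. Without single libraries, where it does not follow, the difference was 0.35 to 0.40. Over all settings, Cct3 lay 0.60 to 0.69, Cct6a 0.61 to 0.66 and Cct7 0.24 to 0.39 above the median of the genes of at least 10 CPM. A further fit left out the 3 RNA libraries with the largest shares of counts in the 4 unequal features. These were stimulated replicates 1 and 2 and unstimulated replicate 2. With 1 stimulated library left, log2 changes were 0.41 for Cct3, 0.37 for Cct6a, 0.20 for Cct5 and 0.08 to 0.14 for the others.

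**Figure D2:**
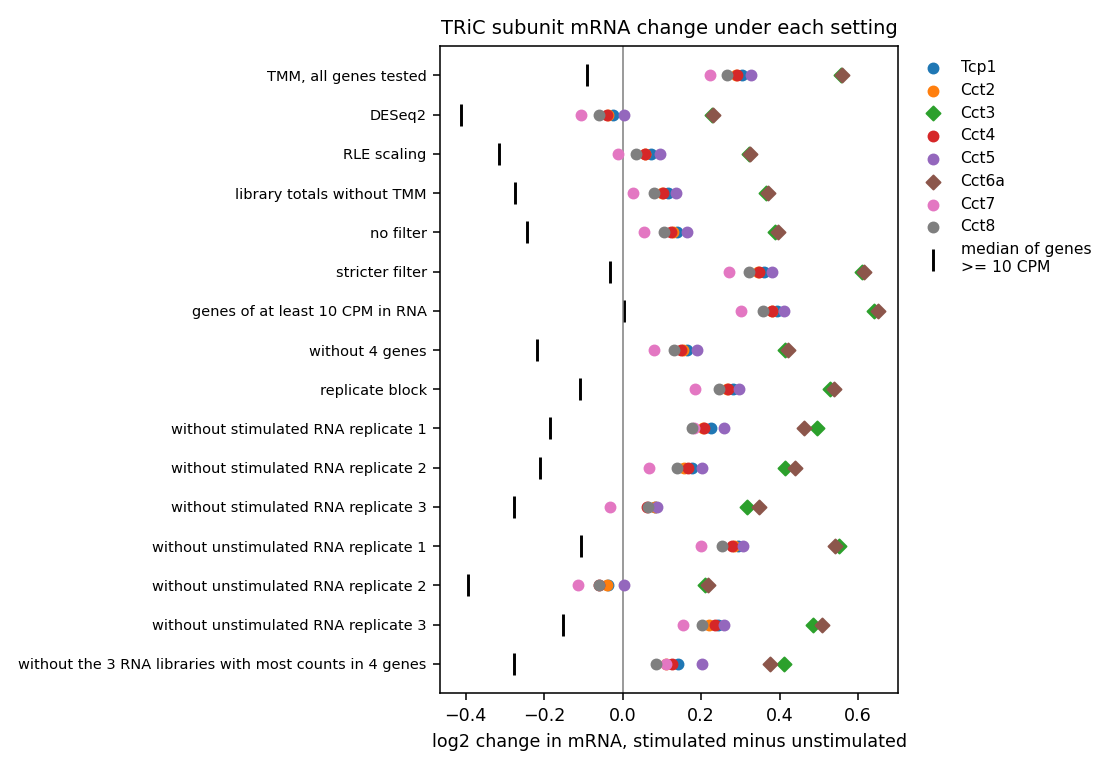
Log2 change in mRNA, stimulated minus unstimulated (horizontal axis), of the 8 TRiC subunits under each setting (rows), with diamonds for Cct3 and Cct6a, circles for the other subunits and a vertical tick for the median of genes of at least 10 CPM. The whole row shifts with the scaling, Cct3 and Cct6a lie right of the other subunits in every row, and each subunit lies right of the tick.

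The make-up of the subunit mRNA pool, which no scaling can move, also differed between the groups. Cct3 made up 10.6, 11.1 and 11.1% of the RNA counts summed over the 8 genes in stimulated libraries, against 9.60, 9.37 and 9.44% in unstimulated libraries. Cct6a made up 11.2, 10.7 and 10.7% in stimulated libraries, against 9.26, 9.19 and 9.47% in unstimulated libraries. Both shares were higher in every stimulated than in every unstimulated library. Cct7 differed most in the other direction, with 8.99, 9.89 and 9.94% in stimulated libraries, against 10.4, 10.6 and 10.5% in unstimulated libraries. Tcp1 (14.1 ± 0.0749% stimulated, 14.5 ± 0.134% unstimulated), Cct2 (16.3 ± 0.304 and 16.9 ± 0.170%), Cct4 (11.8 ± 0.136 and 12.3 ± 0.273%) and Cct8 (11.2 ± 0.298 and 11.8 ± 0.117%) also had lower shares in all stimulated libraries, while those of Cct5 overlapped (15.1 ± 0.199 and 15.3 ± 0.285%). The exact two-sided permutation p was 0.10 for each of the 7 shares without overlap, the smallest that 3 libraries against 3 allow, and 0.50 for Cct5. Shares of 1 sum move against each other, and the measure was chosen after the values were seen. How often the shares of 8 other genes separate in this way was not counted. On genes of at least 10 CPM, 73.3% of all genes passed edgeR's test, so unequal changes were common.

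**Figure D3:**
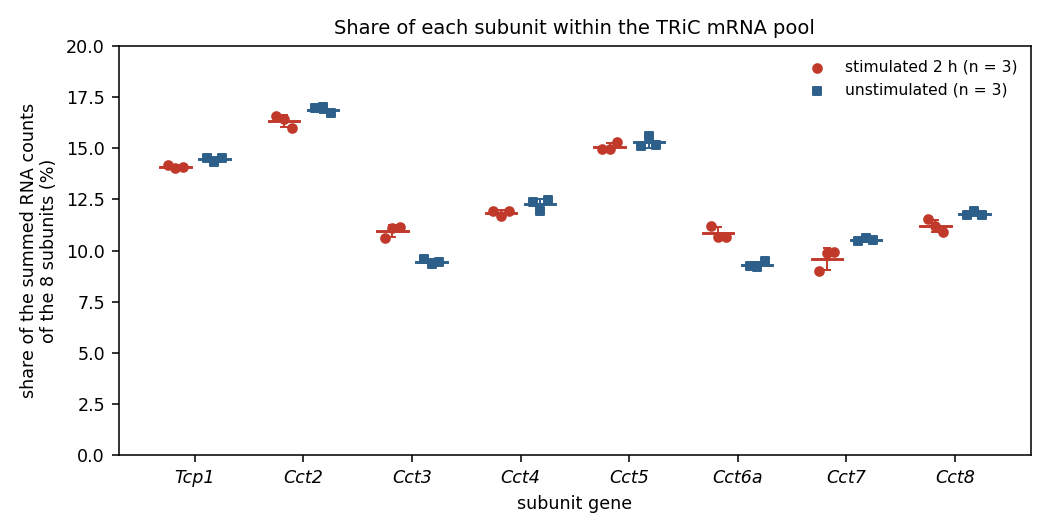
Share of each subunit in the RNA counts summed over the 8 TRiC genes (vertical axis, percent) in 3 stimulated (circles, left) and 3 unstimulated (squares, right) libraries, with means and SD bars. The stimulated shares of Cct3 and Cct6a lie above their unstimulated shares, Cct5 overlaps and the other subunits lie below.

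Because the mRNA profiles of the subunits resembled each other, with Cct3 and Cct6a apart, promoters are shown for the subunits that mark the range: Cct3 and Cct6a with the largest mRNA difference, Cct7 with the smallest, and Cct5, with a heat shock element pair before its start. Each run holds the 250 bases upstream of the RefSeq gene start on GRCm38.p6, read 5′ to 3′ on the gene's strand. Capitals mark matches on either strand to GGGCGG (the GC box, CCGCCC when read on the other strand) and to TTCNNGAA (a pair of heat shock element units, the same on both strands).
Cct3 (chr3:88296885-88297134, plus strand): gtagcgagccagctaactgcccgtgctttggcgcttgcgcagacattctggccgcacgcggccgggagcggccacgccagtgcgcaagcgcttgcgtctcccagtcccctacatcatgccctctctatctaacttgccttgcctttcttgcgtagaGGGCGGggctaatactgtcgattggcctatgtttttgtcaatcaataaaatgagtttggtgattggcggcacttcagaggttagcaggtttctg
Cct6a (chr5:129787106-129787355, plus strand): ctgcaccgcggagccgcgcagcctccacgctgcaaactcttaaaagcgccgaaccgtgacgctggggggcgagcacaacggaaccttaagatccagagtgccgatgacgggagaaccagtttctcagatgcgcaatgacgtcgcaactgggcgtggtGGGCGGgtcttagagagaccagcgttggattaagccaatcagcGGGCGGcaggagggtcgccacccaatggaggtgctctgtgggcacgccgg
Cct7 (chr6:85451255-85451504, plus strand): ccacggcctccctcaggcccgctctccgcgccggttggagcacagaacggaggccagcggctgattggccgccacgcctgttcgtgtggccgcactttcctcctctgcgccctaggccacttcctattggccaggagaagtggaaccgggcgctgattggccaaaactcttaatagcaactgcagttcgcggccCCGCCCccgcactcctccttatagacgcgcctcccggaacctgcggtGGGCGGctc
Cct5 (chr15:31601847-31602096, minus strand): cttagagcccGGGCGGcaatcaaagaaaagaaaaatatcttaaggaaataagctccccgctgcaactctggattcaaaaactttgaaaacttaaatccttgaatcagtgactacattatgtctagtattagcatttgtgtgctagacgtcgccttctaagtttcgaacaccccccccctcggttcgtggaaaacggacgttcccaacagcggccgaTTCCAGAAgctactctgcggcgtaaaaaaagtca

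RefSeq promoter entries, each 250 bases before to 50 after a start, matched 7 of the 8 genes with 9 promoters, and none was matched for Cct4. GGGCGG occurred in all 7 genes and in 8 of the 9 promoters, against 35.7% of 32851 promoters. In Cct3 it had a single match, 94 bases before the gene start. Cct6a had it at 93 and 50 bases before the start and again from the first base of the gene. TTCNNGAA was found 34 bases before the start of Cct5 and 24 bases past the start of Cct6a, and in 8.52% of all promoters. The other heat shock pair, GAANNTTC, was found in Cct2, 42 bases before the second of its starts, and in 7.86% of all promoters. The ETS motif CCGGAAG occurred in Tcp1, Cct2 and Cct8 (8.86% of all promoters), and the E-box CACGTG occurred in none of the 7 genes (7.15% of all promoters). These matches describe letters in a window and were set against no measured binding.

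Footprints on the 8 mRNAs summed to 111 and 116 in stimulated libraries, against 36, 58 and 59 in unstimulated libraries. As CPM of all footprints these sums were 5324.3 and 4906.7 in stimulated libraries, against 3232.8, 3980.5 and 3872.2 in unstimulated libraries, and the groups did not overlap. Pooled over libraries, the level was 1.37 times as high in stimulated cells (95% exact counting interval 1.11 to 1.69). With TMM scaling the footprint sum averaged 4981.9 ± 216 CPM in stimulated (SD, n = 2) and 3745.5 ± 85.6 CPM in unstimulated cells (n = 3), 1.33-fold. The RNA sum with TMM scaling averaged 3059.6 ± 756 CPM in stimulated and 2413.9 ± 182 CPM in unstimulated cells (n = 3 each), 1.27-fold with overlapping groups, and as a share of all counts it was 1.11-fold, also overlapping. On genes of at least 10 CPM, a scale added after seeing the data for this sum, the RNA sum was 1.35-fold, without overlap. Reads were not told apart by molecular identifiers, so counting intervals cover counting error only.

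Cct4 had the largest footprint difference, with 20 and 20 footprints in stimulated libraries, against 5, 2 and 2 in unstimulated libraries. That was 959 and 846 CPM in stimulated libraries, against 449, 137 and 131 CPM in unstimulated ones, with no overlap. The pooled level was 4.09 times as high in stimulated cells (counting interval 1.95 to 9.59). Its log2 change of 1.91 ± 0.75 did not pass edgeR's test (adjusted p = 0.0907), in which 9.38% of 256 genes passed, 5.86% as higher and 3.52% as lower. Without unstimulated footprint replicate 1, the unstimulated library with the highest Cct4 level, it passed with 2.67 (edgeR adjusted p = 0.0174). Leaving out that library lowers the unstimulated level in advance, so this pass adds no support. Cct4 cleared the low-count filter through its stimulated libraries alone, so its tests in footprints and efficiency are no independent support. Of all TRiC footprints, Cct4 held 17.6% in stimulated cells (exact binomial interval 12.9 to 23.2%) and 5.88% in unstimulated cells (2.72 to 10.9%), while its share of the RNA counts was 11.8% in stimulated and 12.3% in unstimulated cells.

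Tcp1 had 12 and 16 footprints in stimulated libraries, against 3, 3 and 8 in unstimulated libraries, and Cct2 had 16 and 24 in stimulated libraries, against 8, 5 and 11 in unstimulated libraries. Their CPM did not overlap between groups, and both pooled ratios had intervals that reach past 1, at 1.84 (0.937 to 3.78) for Tcp1 and 1.53 (0.902 to 2.66) for Cct2. The share of all genes whose footprint groups do not overlap was not counted. Cct5, the subunit with the most footprints, had 17 and 24 in stimulated libraries, against 5, 15 and 16 in unstimulated libraries, a pooled ratio of 1.05 (0.653 to 1.69). Cct8 had 18 and 10 in stimulated libraries, against 3, 10 and 11 in unstimulated libraries (1.07, 0.600 to 1.94). Neither Cct5 nor Cct8 differed beyond counting error.

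A few libraries carried most of the footprints of Cct7 and Cct6a. Cct7 had 15 and 15 footprints in stimulated libraries, against 2, 16 and 2 in unstimulated libraries (pooled ratio 1.38, 0.758 to 2.56), so unstimulated replicate 2 held 16 of its 20 unstimulated footprints. Cct6a had 10 and 1 footprints in stimulated libraries, against 7, 4 and 3 in unstimulated libraries (0.723, 0.297 to 1.71). Cct3, whose mRNA difference was among the largest of the 8, had 3 and 6 footprints in stimulated libraries, against 3, 3 and 6 in unstimulated libraries (0.690, 0.257 to 1.78). Cct3 and Cct6a were the members with pooled footprint ratios below 1, and their intervals take in both 1 and their mRNA ratios of 1.56 and 1.57 on genes of at least 10 CPM, so a difference between footprints and mRNA was not detectable at this depth. Only 5 of the 8 (Cct2, Cct4, Cct5, Cct7 and Cct8) passed edgeR's filter on low counts, and none of them passed the test, although Cct4 had an unadjusted p below 0.05. The other 4 had log2 changes of 0.54 ± 0.55 (Cct2), 0.45 ± 0.66 (Cct7), 0.11 ± 0.62 (Cct8) and 0.05 ± 0.51 (Cct5), and DESeq2, which gave an adjusted p for 6 of the 8, called none.

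**Figure D4:**
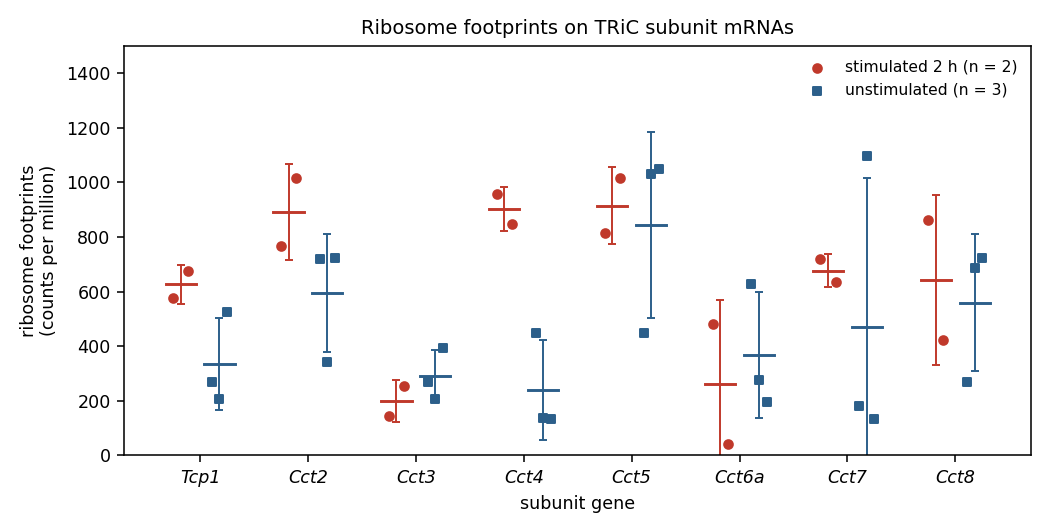
Ribosome footprints on each TRiC subunit (vertical axis, CPM of all footprints) in 2 stimulated (circles, left) and 3 unstimulated (squares, right) libraries, with means and SD bars. The groups separate for Tcp1, Cct2 and Cct4, most widely for Cct4 (902.7 ± 80.1 stimulated, 239 ± 182 unstimulated), and single libraries stand far out for Cct6a and Cct7. The share of all genes that separate was not counted.

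Translational efficiency, the change in footprints beyond that in mRNA, was fitted over all 11 libraries as a term for stimulation that differs between the assays. None of the 5 subunits tested passed edgeR's test, where 3.14% of 255 genes passed, 1.57% in each direction, and DESeq2 called none. Cct4 had an efficiency change of 1.58 ± 0.50 on the log2 scale (edgeR adjusted p = 0.0755), with an unadjusted p below 0.05, and it passed without unstimulated footprint replicate 1 (2.32, adjusted p = 0.0154) and with library totals in place of TMM (1.93, adjusted p = 0.0298). Here too Cct4 entered the fit through its stimulated footprint libraries alone, and the library left out was its highest unstimulated one. The other 4 ranged from -0.42 ± 0.33 for Cct5 to 0.16 ± 0.38 for Cct2. Their ±SE ranges do not show that efficiency stayed the same.

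Footprint CPM divided by mRNA CPM (on the scaling of genes of at least 10 CPM) removes gene length and so allows subunits to be set beside each other. For the sum of the 8 this ratio was 1.60 (Poisson interval 1.40 to 1.82) in stimulated and 1.58 (1.34 to 1.85) in unstimulated cells. On this pair of scales the ratio did not differ between groups beyond counting error, while all genes of at least 10 CPM together had 0.842 in stimulated and 0.988 in unstimulated cells. That total was taken without leaving out the 4 features of unequal share. In stimulated libraries they held 12.8 to 25.0% of RNA counts and 0.0624 to 0.0677% of footprints. In unstimulated libraries they held 4.09 to 14.9% and 0.0269 to 0.734%. Their part in the difference between 0.842 and 0.988 was not tested. The comparison depends on the scales: as shares of all counts, the sum of the 8 was 1.38-fold in footprints and 1.11-fold in RNA. Over both groups the sum had a ratio of 1.59 (1.44 to 1.76), against a median of 0.767 (quartiles 0.409 and 1.40) over 375 genes with mRNA levels in the range of the 8.

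Among the subunits, Cct5 (2.13, interval 1.68 to 2.66), Cct7 (2.10, 1.56 to 2.76), Cct8 (1.90, 1.42 to 2.49), Cct4 (1.71, 1.26 to 2.26) and Cct2 (1.62, 1.25 to 2.07) had the most footprints per mRNA over both groups. Tcp1 (1.23, 0.889 to 1.67), Cct6a (1.02, 0.663 to 1.51) and Cct3 (0.849, 0.526 to 1.30) had the fewest. Neighbours in this order had overlapping intervals, and that of Cct3 lay wholly below those of Cct5, Cct7 and Cct8. These intervals cover counting error alone, in footprints pooled over libraries with the mRNA level taken as exact. Footprint replicates differed beyond that error, so the intervals are too narrow to rank subunits or groups. Split by group, Cct4 had 2.38 (1.70 to 3.24) in stimulated and 0.757 (0.346 to 1.44) in unstimulated cells, intervals that do not meet. Cct3 had 0.579 (0.265 to 1.10) in stimulated and 1.31 (0.675 to 2.28) in unstimulated cells, and Cct6a had 0.715 (0.357 to 1.28) in stimulated and 1.55 (0.848 to 2.60) in unstimulated cells, with intervals that do meet. RefSeq lists 3 pseudogenes named after Cct3, 3 after Cct6a, 5 after Cct7, 2 each after Tcp1 and Cct8, 1 after Cct4 and none after Cct2 or Cct5. None of these 16 has counts of its own in the table, and how reads shared with such copies were counted is not given in the sources used here, so the levels of the 6 genes are uncertain to that extent; its part in the ratios was not tested.

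**Figure D5:**
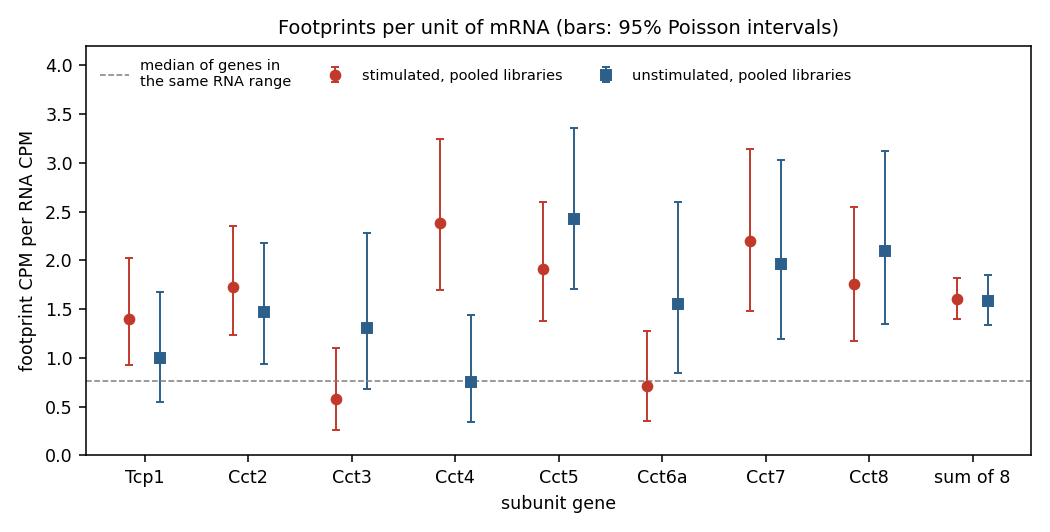
Footprint CPM per mRNA CPM (vertical axis) for each subunit and for the sum of the 8, pooled over stimulated (circles, left) and unstimulated (squares, right) libraries, with 95% Poisson intervals and a dashed line at the median of 375 genes of like mRNA level. The sums are 1.60 and 1.58, and Cct4 is the subunit whose intervals do not meet. The intervals cover counting error only, and replicates differed beyond it.

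Among 4290 genes with at least 50 CPM, the mRNA profiles most like the mean of the 8 subunits over the 6 RNA libraries, by root mean square difference of centred log2 CPM, were those of Trim27 (0.0174), Rtcb (0.0186), Prps1 (0.0187), B4galt5 (0.0204) and Phb2 (0.0220). Cct5 (0.0241) and Tcp1 (0.0241) came 8th and 9th, although both helped to make that mean. Cct2 came 46th, Cct4 49th, Cct8 122nd and Cct7 479th. Cct3 and Cct6a came only 688th and 770th, since their stimulated libraries lay higher than the mean profile.

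Genes that work beside TRiC were put through the same tests. Of 6 prefoldin subunits, none passed in RNA over all genes tested (median log2 change 0.09, against 0.39 for all genes), with Vbp1 at 0.07 ± 0.19 and Pfdn5 at 0.03 ± 0.19. Scaled on genes of at least 10 CPM, all 5 that could be tested passed as higher, as did 36.9% of all genes on that scale (median 0.16), the largest being Pfdn4 (0.59 ± 0.06), against 0.39 for the median of the 8 TRiC subunits on that scale. The phosducin-like cofactors had none of 4 passing over all genes tested (median 0.24), with Txndc9 at 0.37 ± 0.18 and Pdcl at 0.10 ± 0.16. On genes of at least 10 CPM, 3 of 3 passed as higher, against 36.9% of all genes (median of the 3, 0.21). Of the chaperonin-like genes, Bbs12, whose product helps assemble the BBSome of cilia, rose to 23.8 ± 5.06 CPM in stimulated cells, against 10.5 ± 0.405 CPM in unstimulated cells (1.17 ± 0.16, edgeR adjusted p = 0.00151), although it too had at most 1 footprint in a library. Cct6b, the paralog of Cct6a known from testis, had 1.50 ± 0.479 CPM in stimulated and 0.716 ± 0.440 CPM in unstimulated RNA and no footprint in any library.

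Known clients of TRiC had a lower median than the subunits. Over all genes tested in RNA, 4.68% passed as lower and 3.58% as higher. Of 23 client genes tested over all genes, 3 fell, none rose and 20 did not pass (median -0.21): Tubg1, the gamma tubulin of the spindle pole (-0.81 ± 0.18, edgeR adjusted p = 0.0193), Plk1, a mitotic kinase (-0.75 ± 0.16, 0.0146), and Tuba1a, an alpha tubulin (-0.60 ± 0.17, 0.0486). Each of these calls was lost without stimulated replicate 1 (edgeR adjusted p 0.0797, 0.0791 and 0.226 for Tubg1, Plk1 and Tuba1a) or 2 (0.0648, 0.103 and 0.261), that of Plk1 also without unstimulated replicate 3 (0.0633), and that of Tuba1a without unstimulated replicate 1 (0.192) or 3 (0.296). On genes of at least 10 CPM, 11 of 22 passed as lower and 4 as higher, where 36.4% of all genes passed as lower and 36.9% as higher (median -0.15), among them Tuba1b at -0.68 ± 0.08 and the transcription factor Stat3 at 0.68 ± 0.03. Footprints of Actb, the cytoplasmic beta actin, fell by 0.59 ± 0.09 on the log2 scale (edgeR adjusted p = 5.3e-07), with 170 and 185 footprints in stimulated libraries, against 120, 178 and 177 in unstimulated libraries of smaller total. With no filter on low counts this call was lost (-0.31, edgeR adjusted p = 0.763). Its efficiency also fell (-0.44 ± 0.10, edgeR adjusted p = 0.0309), a call lost without any 1 of 5 libraries: stimulated RNA replicate 2 (0.0512), unstimulated RNA replicates 1 (0.0519) and 3 (0.0529) and stimulated footprint replicates 2 (0.517) and 3 (0.422). The efficiency of Tubb5, a beta tubulin, rose (0.90 ± 0.22, edgeR adjusted p = 0.0443), a call lost without the same libraries (0.0512 to 0.212) and without unstimulated footprint replicates 1 (0.0830) and 2 (0.152), with 73 and 64 footprints in stimulated libraries, against 16, 27 and 47 in unstimulated libraries of smaller total. Footprints of Tubb5 did not pass the test. Its mRNA was lower in stimulated cells (1219 ± 274 TMM-scaled CPM) than in unstimulated cells (1813 ± 55.1), without overlap, and did not pass over all genes tested.

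Other folding systems of the cell were set beside TRiC in the same way. Over all genes tested in RNA, 3.58% passed as higher. Of 23 tested genes for Hsp70, Hsp90 and their partners, 2 rose over all genes tested (median 0.30, the same as TRiC to 2 decimals): the inducible Hsp70 genes Hspa1a (2.51 ± 0.60, edgeR adjusted p = 0.0242) and Hspa1b (1.90 ± 0.50, 0.0367), near-identical copies between which reads may be split, at 1.91 and 2.76 CPM in stimulated and 0.333 and 0.735 CPM in unstimulated cells. These calls were lost without stimulated replicate 1 (edgeR adjusted p 0.0608 for Hspa1a, 0.0692 for Hspa1b) or 2 (0.0886, 0.178) or unstimulated replicate 1 (0.0535, 0.119) or 3 (0.126, 0.176), and for Hspa1b also without stimulated replicate 3 (0.0681). On genes of at least 10 CPM, 17 of 20 passed as higher, against 36.9% of all genes, and none as lower (median 0.31), with Dnaja2 at 0.64 ± 0.04 and Ptges3 at 0.63 ± 0.03. Of the mitochondrial chaperonin and its partners, Hspa9, the mitochondrial Hsp70, rose to 820.6 ± 178 CPM in stimulated cells, against 466 ± 27.5 CPM in unstimulated cells (0.82 ± 0.21, edgeR adjusted p = 0.0359). This call was lost without stimulated replicate 1 (0.265) or 2 (0.324) or unstimulated replicate 1 (0.171) or 3 (0.352). On genes of at least 10 CPM, 5 of 6 passed as higher and 1 as lower (median 0.43), against 36.9% and 36.4% of all genes. Hspd1, the chaperonin of mitochondria, was at 0.66 ± 0.03 on that scale.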

How the data were processed

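The authors deposited unnormalized read counts over the coding sequence of 21957 genes in 11 libraries. The submitters' processing notes name STAR 2.5 and the mouse build mm10 (GRCm38). The counting tool, annotation release, strand handling and treatment of reads with several matches are not given in the sources used here. Identifiers were matched to symbols with NCBI tables (21838 named). The 8 members and the lists of related genes were chosen with earlier results of these data known.

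Each assay was tested with edgeR 4.0.16 in R 4.3.3 (quasi-likelihood F test, two-sided, TMM, minimum count 10, minimum total 15, prior count 0.125 for fold changes), without covariates, and adjusted by Benjamini-Hochberg over all genes tested at 0.05. Efficiency was the interaction of assay and stimulation. Fits were tested on simulated data. Intervals are 95% and cover counting error only, and a count of 0 allows 3 counts, 127 and 144 CPM in stimulated and 197 to 269 CPM in unstimulated footprint libraries. Replicates differed beyond sampling noise, so each counted as 1 sample. Coding lengths were not used, so levels are compared between genes only as footprints per mRNA. The alternatives were DESeq2 1.42.0, RLE scaling, library totals, other filters, genes of at least 10 CPM, scaling without 4 features, replicate number as a block, single libraries left out and RNA thinned to 15237 counts. Leaving out 3 RNA libraries, and putting summed levels on the scale of genes of at least 10 CPM, are alternatives added after seeing the data. Named beside the members are, per list, up to 4 genes that passed in RNA or else the 2 most abundant, every list gene that passed in footprints or efficiency, and the 5 genes of most similar mRNA profile. Genes named on the scaling of genes of at least 10 CPM (Pfdn4, Tuba1b, Stat3, Dnaja2, Ptges3, Hspd1, Cd3e, Cd8b1, Cd3g, Cd3d and Eomes) were picked after their values were seen. So were Cct6b, Hspa8, Hsp90ab1 and Hspa4.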

Additional observations from a re-analysis of the deposited data

How the results depend on the processing

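The number of genes called in RNA, 1560 (677 higher, 883 lower), depended strongly on scaling and on the low-count genes: DESeq2 called 2912 (353 higher, 2559 lower), RLE scaling 334 higher and 1364 lower, library totals 5220 (1005 higher, 4215 lower), scaling without 4 features 525 higher and 1151 lower, a filter at a mean of 50 counts 4932, genes of at least 10 CPM 6228, the 3 remaining libraries 7341 and thinned counts 19, where no subunit passed the filter. Leaving out single libraries gave 583 to 13024, the highest without unstimulated replicate 2. TRiC subunits called, 0 over all genes tested, became 7 with the filter at 50 counts, where 2287 of 12611 genes were called higher. The number was 8 with genes of at least 10 CPM, where 36.9% of 8494 genes were called higher. It stayed at 0 (0 to 0) when single libraries were left out. The RNA log2 change turned negative with DESeq2 for Tcp1 (-0.024), Cct2 (-0.038), Cct4 (-0.039), Cct7 (-0.11) and Cct8 (-0.060) and with RLE scaling for Cct7 (-0.012), and without single libraries it ran from -0.038 to 0.29 for Tcp1, -0.041 to 0.28 for Cct2, -0.061 to 0.28 for Cct4, -0.11 to 0.20 for Cct7 and -0.060 to 0.25 for Cct8, each lowest without unstimulated replicate 2. Cct3 (0.21 to 0.55), Cct5 (0.0022 to 0.31) and Cct6a (0.22 to 0.54) stayed positive. The cause was not tested beyond these settings. Where a setting left 1 stimulated library, that library was assumed to vary like the other group.

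Among related genes, the RNA call of Hspa9 was also lost with DESeq2 (adjusted p = 0.133), RLE scaling (0.180), no filter (0.168) and scaling without 4 features (0.0878) and thinned counts (0.0847), that of Hspa1b with no filter (0.0648) and that of Cd40lg with DESeq2 (0.0660). The efficiency call of Actb was also lost with DESeq2 (0.477), library totals (0.891), no filter (0.874) and a filter at 10 counts (0.0642), and that of Tubb5 with no filter (0.198), a filter at 10 counts (0.105) and genes of at least 10 CPM (0.0520).

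In footprints, 24 genes were called, 11 with no filter and 12 to 30 without single libraries. Cct4, which cleared the main filter through its stimulated libraries alone, was the subunit that could pass (0 to 1 called without single libraries, log2 1.52 to 2.67). Cct5 and Cct8 turned negative with a filter at 10 counts (-0.22 and -0.17), and without single libraries Cct5 ran from -0.20 to 0.27, Cct7 from -0.14 to 1.97 and Cct8 from -0.38 to 0.54. For efficiency, 8 genes were called, 29 with DESeq2, 15 with library totals, 4 with no filter, 1 with a filter at 10 counts, 3 with genes of at least 10 CPM and 0 to 9 without single libraries, with 1 subunit called (Cct4) under library totals and 0 to 1 without single libraries. Efficiency of Cct2 (-0.018) and Cct7 (-0.088) turned negative with a filter at 10 counts, and that of Cct8 turned positive with library totals (0.036) and no filter (0.025). Without single libraries, Cct2 ran from -0.20 to 0.38, Cct7 from -0.48 to 1.71 and Cct8 from -0.86 to 0.089. The summed levels kept their direction, with a log2 ratio of 0.13 to 0.48 in RNA and 0.37 to 0.46 in footprints without single libraries.

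Whether replicate numbers pair the samples could not be decided. Same-numbered stimulated and unstimulated RNA libraries had deviations from their group means correlated at -0.788, 0.640 and 0.726. Differently numbered ones ran from -0.885 to 0.863. Same-numbered footprint libraries had 0.00181 and 0.0162. Deviations within a group sum to 0, so these correlations are tied to each other and cannot show or exclude pairing. With replicate number as a block, 2404 genes were called in RNA and none of the subunits, and 1 subunit in footprints, Cct4 (2.71, edgeR adjusted p = 0.0117), with Cct5 and Cct8 at -0.15 each. At 11136 to 23641 footprints a library, a single subunit had 1 to 24 counts, which limits what can be seen to changes of several fold.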

Other observations

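Footprints of some chaperone mRNAs outside TRiC were few. Hspa8, the constitutive Hsp70, had 1589.0 ± 353 CPM in stimulated and 1260.4 ± 68.8 CPM in unstimulated RNA but 2 and 7 footprints in stimulated libraries, against 2, 1 and 0 in unstimulated libraries. Ptges3, an Hsp90 cochaperone, had 135 ± 27.3 CPM in stimulated and 93.8 ± 4.10 CPM in unstimulated RNA and no footprint in any library. Other chaperones were well covered, such as Hsp90ab1, with 59 and 57 footprints in stimulated libraries, against 19, 25 and 26 in unstimulated libraries, and Hspa4, with 17 and 17, against 5, 4 and 9. How reads shared with processed copies of a gene were counted is not given in the sources used here, so the low counts of Hspa8 and Ptges3 cannot be read as little translation. Every TRiC subunit had at least 1 footprint in each of the 5 libraries, 380 in all.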
